A study of Mus musculus with 12 samples.

Results

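The strands of the miR-23/27/24 clusters were followed in NIH3T3 cells challenged with tunicamycin (Tm). They are read by 8 probe sets, 5 of guide strands (miR-23a, miR-23b, miR-24, miR-27a and miR-27b, on the array mmu-miR-23a_st, mmu-miR-23b_st, mmu-miR-24_st, mmu-miR-27a_st and mmu-miR-27b_st) and 3 of star strands (miR-24-2*, miR-27a* and miR-27b*, on the array mmu-miR-24-2-star_st, mmu-miR-27a-star_st and mmu-miR-27b-star_st). The members were listed by name, with earlier results of these data known. All 8 were found among the 717 mature mouse probe sets tested, which hold 121 star strands, and among 1412 mouse probe sets in all. NIH3T3 is an established line of mouse fibroblasts. Proliferating cells without treatment (0 h) were compared with cells given 2 μg/ml Tm for 2, 5 or 10 h, on 12 GeneChip miRNA arrays, 3 for each time. There were no untreated arrays at 2, 5 or 10 h, so the time in culture and the drug cannot be told apart. Whether the 3 arrays of a time stand for separate cultures is not in the labels, and p-values measure only the spread between these arrays.

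A microRNA hairpin is cut into a duplex with a strand from each arm. The strand that is kept by an Argonaute protein is called the guide, and the other, here marked with a star, is the passenger strand, which is mostly degraded. Hairpins of a cluster lie side by side and are usually made from one primary transcript, so the strands share their synthesis but not their processing or their turnover. MiR-27 is known for restraining fat cell differentiation, miR-24 for restraining cell cycle genes, and miR-23 for repressing glutaminase. Tm blocks N-linked glycosylation in the endoplasmic reticulum and thereby starts the unfolded protein response, in which the kinases PERK and Ire1 are sensors.

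The cluster of mir-23a, mir-27a and mir-24-2 lies on chromosome 8, and in the array annotation its hairpins span 404 bp on the plus strand, from 86732417 to 86732820. The cluster of mir-23b, mir-27b and mir-24-1 spans 792 bp on the plus strand of chromosome 13, from 63401792 to 63402583. The sources used here do not name the genome build of these coordinates. In the RefSeq gene table of GRCm38.p6 all 3 hairpins of the chromosome 13 cluster overlap the protein-coding gene Aopep, while mir-23a and mir-27a overlap no other gene. MiR-24 is made by both clusters with the same sequence, so its probe set reads their sum.

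RefSeq held a mature sequence for 7 of the 8 members (all but miR-23b). They are printed 5′ to 3′ with the seed, bases 2 to 8, in capitals, because the seed is the part that pairs with target messages and shows which members could share targets. The guide strands come first and the star strands after them.
miR-23a: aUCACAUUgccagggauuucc
miR-27a: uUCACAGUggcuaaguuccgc
miR-27b: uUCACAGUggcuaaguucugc
miR-24: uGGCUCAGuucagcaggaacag
miR-27a*: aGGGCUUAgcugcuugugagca
miR-27b*: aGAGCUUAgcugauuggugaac
miR-24-2*: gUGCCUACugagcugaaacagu

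These 7 sequences carried 6 distinct seeds, and the shared one belonged to miR-27a and miR-27b. The miR-27 guides were identical at 20 of 21 bases and differed by C19U (the miR-27a base, its position from the 5′ end, then the miR-27b base). How far the array tells apart strands that differ at 1 base was not measured. The passenger strands of the same 2 hairpins were less alike. Aligned without gaps, miR-27a* and miR-27b* matched at 14 of 22 bases, and G3A lay within the seed. An alignment with a gap, which could match more of the last bases, was not made. MiR-24-2* shared its seed with miR-24-1*, the passenger strand of the other mir-24 hairpin.

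The hairpins whose arms are compared are shown whole, with both arms in capitals, the passenger strand on the 5′ side and the guide on the 3′ side.
mir-27a: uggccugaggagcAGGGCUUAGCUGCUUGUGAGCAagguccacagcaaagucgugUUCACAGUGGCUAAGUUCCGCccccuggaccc
mir-27b: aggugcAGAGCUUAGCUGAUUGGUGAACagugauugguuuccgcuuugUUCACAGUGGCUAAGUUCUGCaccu
mir-24-2: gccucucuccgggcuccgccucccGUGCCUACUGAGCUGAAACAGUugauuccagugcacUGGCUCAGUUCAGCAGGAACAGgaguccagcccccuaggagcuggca

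In both miR-27 hairpins 20 bases lie between the arms, and in mir-24-2 there are 14. The letters CUGCAG, a site that Ire1 can cut, were searched on the RNA strand only. They were found in none of the 6 hairpins of the clusters and in 75 of 1005 mouse hairpins of the RefSeq table (7.5%). This says only that these letters are not in these hairpins.

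The values are log2 intensities normalised by the authors, and a difference of 1 is a doubling. Array medians over all probe sets lay between 2.60 and 2.67, and 53.1 to 57.5% of the tested probe sets exceeded an array's background limit of 2.88 to 3.02. All 8 members exceeded it on all 12 arrays. MiR-23a lay 0.07 to 0.21 below the highest value of each array, miR-24 0.39 to 0.54 and miR-23b 0.64 to 0.79. A rise of these 3 may have had little room, but where the readings stop rising was not measured. All 12 fibroblast and mesenchymal markers were above the limit on all arrays and all 4 blood cell markers on none, and the endothelial marker miR-126-3p was above it on 1 array. Of 7 epithelial markers 3 were above it on none, and the log2 of their summed level was 9.64 to 9.77 before treatment, 6.12 to 6.51 after 2 h and 4.58 to 4.81 after 10 h, where miR-205 and miR-200c made up most of it at the start. The part of this change in the results below was not tested. Of the muscle markers miR-206 was above the limit on all 12 arrays, while miR-1 and miR-133a were below it on all. In bulk RNA, fewer cells with a strand and less of it per cell cannot be told apart. The second array before treatment and the second one at 5 h deviated together from their time points (r = 0.60 across probe sets), and results that rest on them are also given without both.

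At each time the largest difference from 0 h belonged to a star strand, and the 2 miR-27 passengers followed different courses. MiR-27a* rose at 5 and 10 h, miR-27b* rose at 2 and 5 h and was back near its 0 h level after 10 h, and miR-24-2* fell after 2 h and rose at 5 h. Among the guides miR-27a and miR-27b fell after 2 h, and the other 3 moved little. By limma, with adjusted p under 0.05 over all 717 probe sets, 1 member was higher and 3 were lower after 2 h, where 13.2% of all tested probe sets were called (7.39% higher and 5.86% lower). At 5 h 4 members were higher and 0 lower, against 8.37% called in all (4.32% higher and 4.04% lower). At 10 h 2 were higher and 1 was lower, against 12.7% (5.58% higher and 7.11% lower). Some change over time was called for 7 of 8 members, all but miR-24, against 21.8% of all tested probe sets. Of those 717, 342 were above the background limit on all 12 arrays, as all 8 members were, and 248 on none. The shares over all tested probe sets therefore include many at background. The 3 arrays of a time point did not overlap those before treatment for 5 members after 2 h, 7 at 5 h and 6 after 10 h, against 30.1%, 21.5% and 28% of all tested probe sets. The comparisons with 0 h share its 3 arrays.

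These counts depended on how the arrays were scaled. With each array shifted to the same median over the tested probe sets, 1 member was called after 2 h (miR-27a), 1 at 5 h and 1 after 10 h (miR-27a* in both). The split over all probe sets then turned from 53 higher and 42 lower to 7 and 30 after 2 h, and from 40 and 51 to 38 and 18 after 10 h. Of the 25 called differences of members over the 6 pairs of time points, 7 stayed called under every alternative and no called difference changed its sign. Those 7 were the fall of miR-27a after 2 h with its differences from 2 h to 5 h and to 10 h, and the 4 rises of miR-27a*: from 0 h to 5 h, from 0 h to 10 h, from 2 h to 5 h and from 2 h to 10 h.

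**Figure D1:**
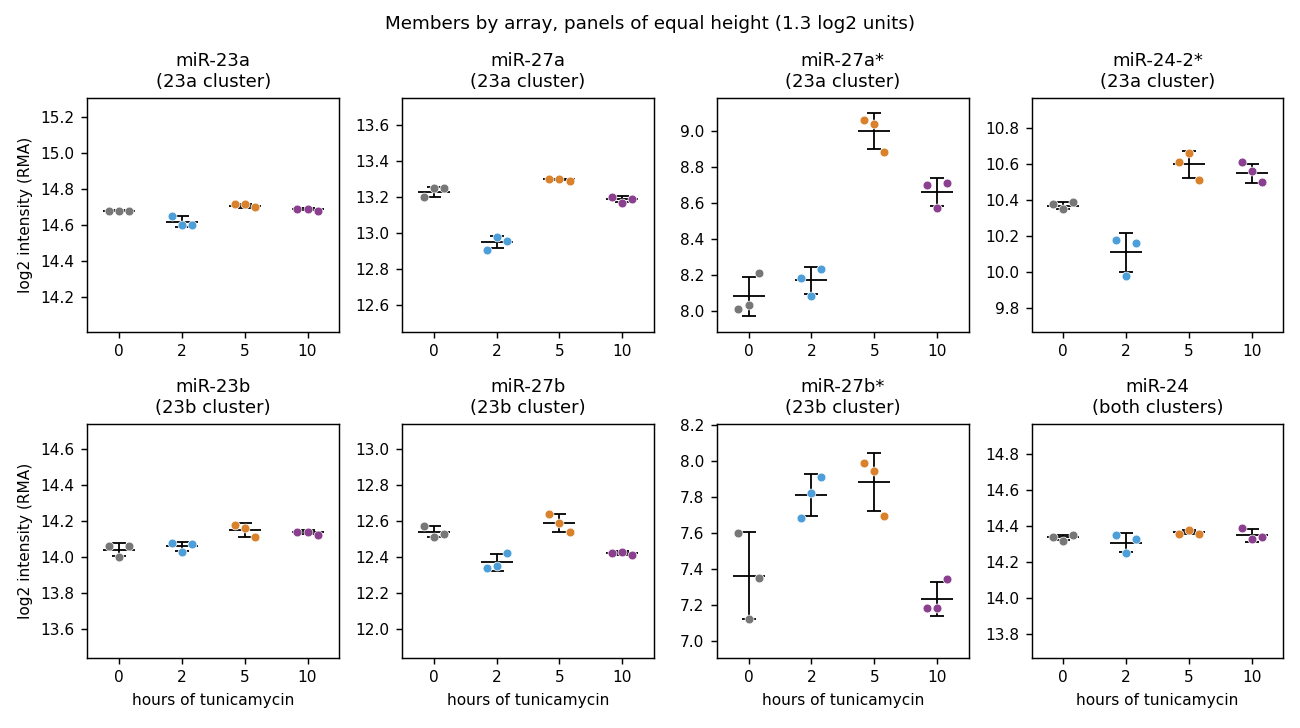
Log2 intensity of the 8 members by hours of Tm; points are the 3 arrays of a time point, the dash is their mean and the bar 1 SD, and all panels cover 1.3 log2 units. MiR-27a* stands between 8.88 and 9.06 at 5 h against 8.01 to 8.21 before treatment, while miR-23a and miR-24 stay nearly level.

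MiR-27a*, the passenger strand of mir-27a, read 8.01, 8.03 and 8.21 on the 0 h arrays and 8.18, 8.08 and 8.23 after 2 h. It read 9.06, 9.04 and 8.88 at 5 h and 8.70, 8.57 and 8.71 after 10 h. The arrays at 5 and 10 h were all above those at 0 and 2 h and those at 0 and 2 h overlapped. The SD over the 3 arrays was 0.11 before treatment, with a mean of 8.08, and 0.10 at 5 h. The 5 h difference was 0.91 (SE 0.08, 1.88-fold, limma adjusted p = 2.11e-06), the fourth highest rise of the 717 probe sets and the highest of the 121 star strands. At 10 h it was 0.58 (1.49-fold, adjusted p = 1.62e-04), ranked 13 of 717 and the second among star strands. At 2 h the difference was 0.08 with a 95% interval from -0.09 to 0.26 (adjusted p = 0.595). From 5 h to 10 h miR-27a* fell by 0.33 (adjusted p = 0.0265), a call that ended without any one array of 5 h or 10 h except the third at 5 h (adjusted p 0.0514 to 0.136), and without both deviating arrays (0.0824).

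MiR-27b*, the passenger strand of mir-27b, read 7.60, 7.12 and 7.35 before treatment, the widest spread of any member (SD 0.24, n = 3). It read 7.68, 7.82 and 7.91 after 2 h, 7.99, 7.94 and 7.69 at 5 h, and 7.18, 7.18 and 7.34 after 10 h. The arrays at 2 and 5 h overlapped with each other and lay above those of 0 and 10 h, which also overlapped. The differences from 0 h were 0.45 after 2 h (SE 0.12, limma adjusted p = 0.0256), 0.52 at 5 h (1.43-fold, adjusted p = 0.0187) and -0.13 after 10 h (95% interval -0.39 to 0.14, adjusted p = 0.631). The calls against 0 h rested on few arrays. At 2 h the call ended without the second or the third 0 h array or the second or the third 2 h array (adjusted p 0.0632 to 0.119), and at 5 h without the second 0 h array or the first or second 5 h array (0.0651 to 0.0862). Without both deviating arrays the differences were 0.33 (adjusted p = 0.116) and 0.37 (adjusted p = 0.165). MiR-27b* was 0.64 lower after 10 h than at 5 h (adjusted p = 0.00546) and 0.57 lower than after 2 h (adjusted p = 0.0052), and leaving out any one array ended neither call. Both calls ended with each array shifted to one median (adjusted p 0.0576 and 0.0632), with quantile normalization (0.108 and 0.0777) and by the methods' t-test (0.137 and 0.0503).

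MiR-24-2*, the passenger strand of mir-24-2, read 10.38, 10.35 and 10.39 before treatment and 10.18, 9.98 and 10.16 after 2 h. It read 10.61, 10.66 and 10.51 at 5 h and 10.61, 10.56 and 10.50 after 10 h. The 2 h arrays lay below all others, the 5 and 10 h arrays lay above those of 0 h, and 5 and 10 h overlapped. The difference from 0 h was -0.27 after 2 h (SE 0.06, limma adjusted p = 0.0068) and 0.22 at 5 h (adjusted p = 0.0276). At 10 h it was 0.18 and missed the threshold (adjusted p = 0.0547). The step from 2 h to 5 h was 0.49 (1.40-fold, adjusted p = 3.18e-05). The 5 h call ended without any one of the 0 h arrays or the first or second 5 h array (adjusted p 0.0609 to 0.109), and without both deviating arrays (0.206).

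MiR-24-1*, which is no member, was the only other strand of the clusters on the array. It read 3.75 to 4.72 over the 12 arrays and was above the background limit on all of them. Its SE was 0.29, and it was called in none of the comparisons with 0 h by limma.

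MiR-27a, the guide of mir-27a, read 13.20, 13.25 and 13.25 before treatment and 12.91, 12.98 and 12.96 after 2 h. It read 13.30, 13.30 and 13.29 at 5 h and 13.20, 13.17 and 13.19 after 10 h. The 2 h arrays were the lowest and the 5 h arrays the highest, with no overlap. MiR-27a was 0.28 lower after 2 h than before treatment (SE 0.03, 1.22-fold lower, limma adjusted p = 9.11e-06), the fifth lowest p-value of the 717 probe sets, while by size it ranked 103 among the falls. It was 0.35 higher at 5 h than after 2 h (adjusted p = 8.66e-07). Neither 5 h (0.06, adjusted p = 0.215) nor 10 h (-0.05, adjusted p = 0.361) passed against 0 h. The fall of 0.11 from 5 h to 10 h (adjusted p = 0.0334) lost its call without any one of 7 arrays: the first or the third before treatment, the first or second at 5 h, or any after 10 h (adjusted p 0.0502 to 0.139), and without both deviating arrays (0.0917).

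MiR-27b, the guide of mir-27b, was lowest and highest at the same times as miR-27a. It read 12.57, 12.51 and 12.53 before treatment, 12.34, 12.35 and 12.42 after 2 h, 12.64, 12.59 and 12.54 at 5 h, and 12.42, 12.43 and 12.41 after 10 h. The 2 and 10 h arrays overlapped and lay below those of 0 and 5 h, which overlapped too. The difference from 0 h was -0.17 after 2 h (SE 0.04, limma adjusted p = 0.0057), 0.05 at 5 h (adjusted p = 0.494) and -0.12 after 10 h (adjusted p = 0.043). From 2 h to 5 h it rose by 0.22 (adjusted p = 5.47e-04), and from 5 h to 10 h it fell by 0.17 (adjusted p = 0.0092). The 10 h difference from 0 h lost its call without any one of the 0 h or 10 h arrays or the second 5 h array (adjusted p 0.0523 to 0.165), and without both deviating arrays (0.0635). The later fall lost it without the first 5 h or the third 10 h array (0.0533 and 0.0542).

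The guides nearest the top of the scale differed from 0 h by at most 0.11. MiR-23b read 14.06, 14.00 and 14.06 before treatment, 14.08, 14.03 and 14.07 after 2 h, 14.18, 14.16 and 14.11 at 5 h and 14.14, 14.14 and 14.12 after 10 h. It was 0.11 higher at 5 h (SE 0.03, limma adjusted p = 0.0193) and 0.10 higher after 10 h (adjusted p = 0.0274) than before treatment, with no overlap. The 5 h call ended without the second 0 h array or the first or second 5 h array (adjusted p 0.0762 to 0.0933), and the 10 h call without the first or second 0 h array or any 10 h array (0.0559 to 0.132). Without both deviating arrays neither held (0.187 and 0.139). The step of 0.09 from 2 h to 5 h (adjusted p = 0.0475) held only without the second 0 h or the third 5 h array, and reached an adjusted p of 0.0572 to 0.173 without any of the other 10 (0.114 without both deviating arrays).

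MiR-23a read 14.68 on each of the 0 h arrays, 14.65, 14.60 and 14.60 after 2 h, 14.72, 14.72 and 14.70 at 5 h and 14.69, 14.69 and 14.68 after 10 h. Against 0 h it was called at no time (-0.06 after 2 h, limma adjusted p = 0.0887). The 2 h arrays were the lowest, and the step of 0.10 from 2 h to 5 h was called (adjusted p = 0.009, 0.0543 without the third 2 h array). The call also ended with each array shifted to one median (0.516), without a variance trend (0.351) and by the methods' t-test (0.106). MiR-23a lost it too with arrays of only the time points compared (0.0859), and with quantile normalization its step was 0. Its change over time as a whole (adjusted p = 0.0275) lost its call without any one of 8 arrays: the first or the third before treatment, the second or the third after 2 h, the first or second at 5 h, or the second or the third after 10 h (0.0515 to 0.137), and without both deviating arrays (0.084). MiR-24 read 14.25 to 14.39 over all 12 arrays and was called in no comparison. Its differences from 0 h ran from -0.02 to 0.03, with 95% intervals that reached from -0.09 to 0.09.

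**Figure D2:**
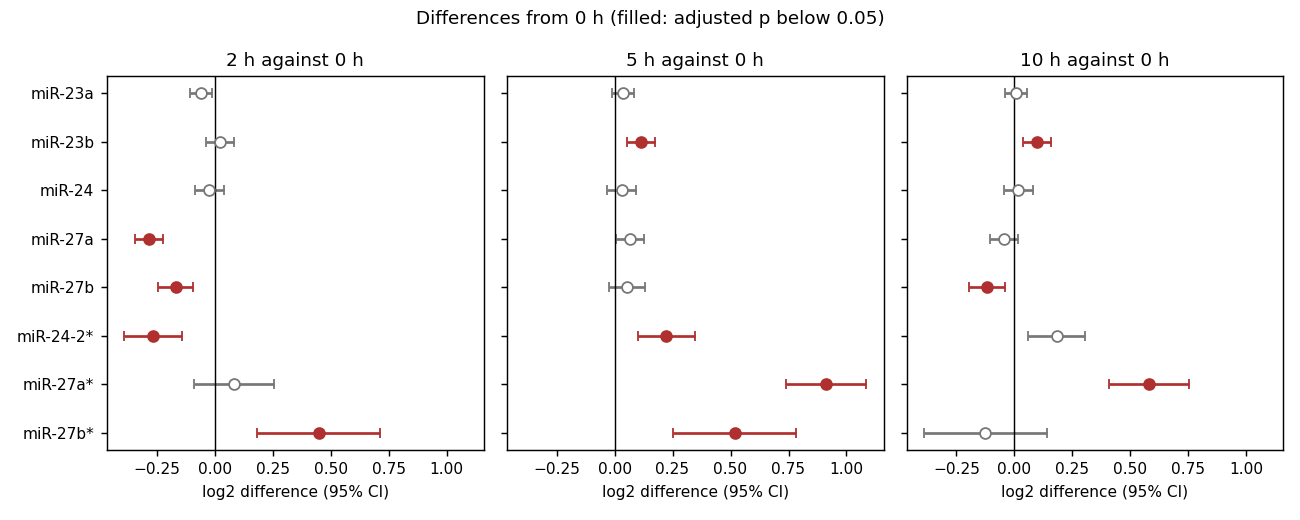
Log2 difference of each member from 0 h at 2, 5 and 10 h with its 95% interval from limma; filled points have an adjusted p below 0.05. The 3 star strands have the wider intervals and, at 5 h, the differences of 0.22, 0.91 and 0.52 are all above 0.

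The arms of a hairpin were set against each other by the difference of star and guide within each array, which is free of any shift of a whole array. Its change with time was tested, not its size, since different probe sets have no common scale. All 3 hairpins changed their difference over time (limma adjusted p = 6.16e-04 for mir-27a, 0.0057 for mir-27b and 0.0047 for mir-24-2, over 122 differences). In the fit 21.3% of the 122 changed over time, as did 26.3% of the 57 arm pairs with both strands above the limit. Of the 3 arm and 3 paralog differences, 3 were called after 2 h, 2 at 5 h and 2 after 10 h, against 15.6%, 11.5% and 18.9% of the 122. Over all pairs of time points 13 of their differences were called, of which 7 stayed called under all 18 alternatives run on pairs. The members had 24 alternatives, so the 2 counts are not alike. The methods' t-test and the fit of only the time points compared were not run on pairs.

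In mir-27a the difference shifted towards the star early and stayed shifted. The difference miR-27a* minus miR-27a was -5.19, -5.21 and -5.04 before treatment, -4.73, -4.89 and -4.73 after 2 h, -4.24, -4.26 and -4.41 at 5 h and -4.50, -4.60 and -4.48 after 10 h. No array of 2, 5 or 10 h overlapped those of 0 h. The shift towards the star was 0.37 after 2 h (SE 0.09, limma adjusted p = 0.0163), where the guide had fallen and the star had missed the threshold, 0.85 at 5 h (adjusted p = 1.46e-04) and 0.63 after 10 h (adjusted p = 0.0014). The 2 h call ended without the first or second 0 h array or the first or the third 2 h array (adjusted p 0.0561 to 0.065), and without both deviating arrays (0.0878). An exact permutation test of the F statistic over all 369600 arrangements of the arrays gave p = 6.49e-05, the smallest it can give.

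In mir-27b the shift came early and was near 0 after 10 h. MiR-27b* minus miR-27b was -4.97, -5.39 and -5.18 before treatment, -4.65, -4.53 and -4.51 after 2 h, -4.65, -4.65 and -4.85 at 5 h and -5.24, -5.25 and -5.07 after 10 h. The shift was 0.62 after 2 h (SE 0.12, limma adjusted p = 0.0051), 0.46 at 5 h (adjusted p = 0.0342) and -0.01 after 10 h (95% interval -0.27 to 0.25, adjusted p = 0.949). From 2 h to 10 h it was -0.62 (adjusted p = 0.0092), a call that ended with quantile normalization (0.0578), as did that at 5 h (0.124). The arrays of 2 and 5 h lay above those of 0 and 10 h. The 5 h call ended without the second or the third 0 h array, the first or second 5 h array, or the second array at 2 or 10 h (adjusted p 0.0509 to 0.121), and without both deviating arrays (0.224). The exact permutation p over time was 0.00344.

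In mir-24-2 the shift went first towards the guide. MiR-24-2* minus miR-24 was -3.96, -3.97 and -3.96 before treatment, -4.18, -4.27 and -4.18 after 2 h, -3.75, -3.72 and -3.85 at 5 h and -3.79, -3.78 and -3.84 after 10 h. The 2 h arrays were below and the 5 and 10 h arrays above those of 0 h. The differences were -0.24 after 2 h (limma adjusted p = 0.0379), 0.19 at 5 h (adjusted p = 0.121) and 0.16 after 10 h (adjusted p = 0.144), and the step from 2 h to 5 h was 0.44 (adjusted p = 0.004). At 2 h only the fits without the third 5 h or the first 10 h array kept the call, and the other 10 gave an adjusted p of 0.0514 to 0.117 (0.116 without both deviating arrays). The exact permutation p over time was 3.90e-04. Since miR-24 also comes from mir-24-1, this pair does not compare the arms of 1 hairpin alone. Against 0 h miR-24 itself moved by -0.02, 0.03 and 0.02, and miR-24-2* by -0.27, 0.22 and 0.18, with the same signs. MiR-24 was called in no comparison and lay 0.39 to 0.54 below the highest value of each array. The pair mostly follows the star strand, and may be limited in what it could show of the guide.

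**Figure D3:**
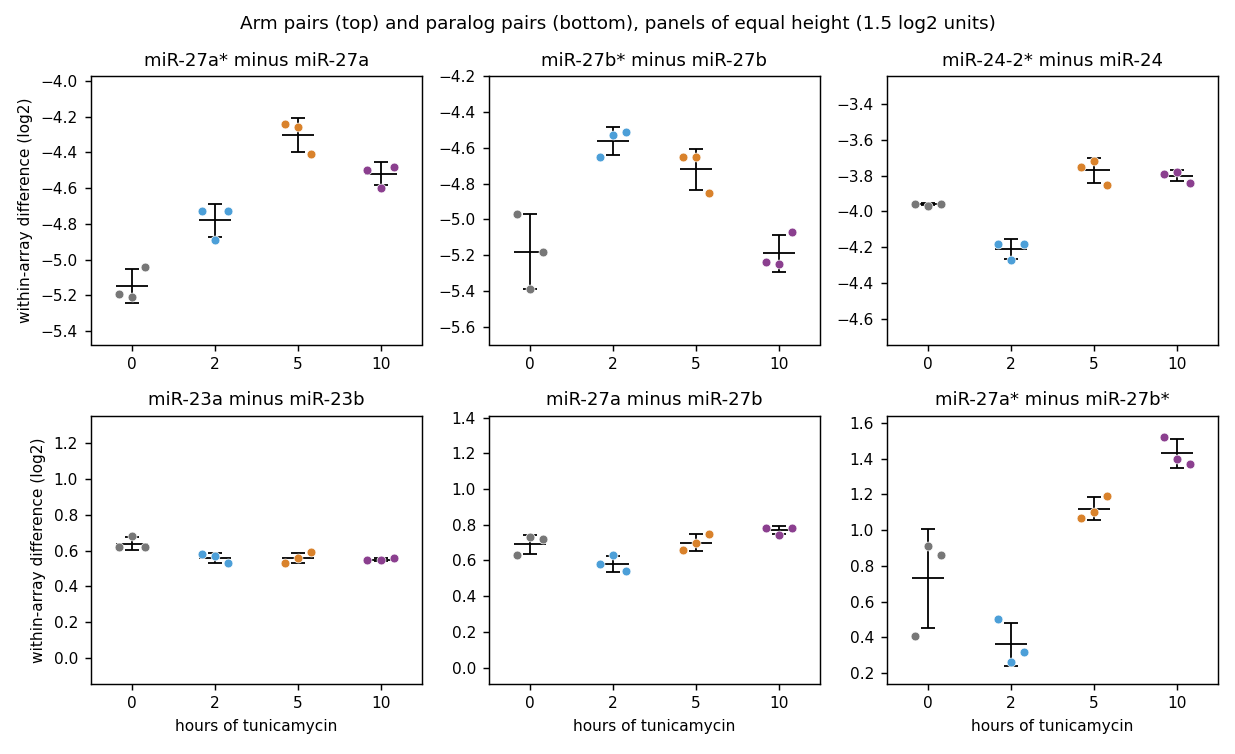
Within-array log2 differences by hours of Tm, star minus guide in the upper row and chromosome 8 strand minus chromosome 13 strand in the lower row; points are arrays, the dash the mean of 3 and the bar 1 SD, and panels cover 1.5 log2 units. The difference miR-27a* minus miR-27b* runs from 0.26 to 0.50 after 2 h up to 1.37 to 1.52 after 10 h, and the 2 guide pairs stay between 0.53 and 0.78.

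The 2 clusters were compared in the same way through their paralogs, taking the chromosome 8 strand minus the chromosome 13 strand. The difference moved by up to 1.07 between time points for the miR-27 passengers, and by up to 0.19 for the guides. Both miR-23 guides lay near the top of the scale, and how far the array tells the miR-27 guides apart was not measured. The guide pairs are therefore limited in what they could show. MiR-27a* minus miR-27b* was 0.41, 0.91 and 0.86 before treatment, 0.50, 0.26 and 0.32 after 2 h, 1.07, 1.10 and 1.19 at 5 h and 1.52, 1.40 and 1.37 after 10 h. The arrays at 5 and 10 h were above all others and did not overlap each other, while those of 0 and 2 h overlapped through the first 0 h array. The change from 0 h was -0.37 after 2 h (limma adjusted p = 0.108), 0.39 at 5 h (adjusted p = 0.121) and 0.71 after 10 h (SE 0.14, adjusted p = 0.0082). With quantile normalization the 10 h change was 0.51 and lost its call (adjusted p = 0.0625). From 2 h it was 0.76 to 5 h (adjusted p = 0.0075) and 1.07 to 10 h (2.10-fold, adjusted p = 0.0023). From 2 h, 3 of the 6 arm and paralog differences were called at 5 h and 3 after 10 h, against 6.56% and 5.74% of the 122. The change over time had an adjusted p of 0.0026 and an exact permutation p of 1.30e-04.

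For the guides the tools differed. MiR-23a minus miR-23b was 0.62 to 0.68 before treatment and 0.53 to 0.59 on the 9 treated arrays, and these did not overlap. Its change was -0.08 after 2 h, -0.08 at 5 h and -0.09 after 10 h, and limma, whose SE of 0.08 borrows from the spread of the other pairs, did not call it (adjusted p = 0.736 over time). The exact permutation test gave p = 0.0158. MiR-27a minus miR-27b was 0.63 to 0.73 before treatment, 0.54 to 0.63 after 2 h, 0.66 to 0.75 at 5 h and 0.74 to 0.78 after 10 h, with an adjusted p of 0.373 over time by limma and an exact permutation p of 0.00682. The exact test was run on 6 pairs, the 3 arm pairs and the 3 paralog pairs, and its p-values are printed unadjusted. Adjusted over these 6, the exact permutation p was 0.0158 for the miR-23 guides and 0.00818 for the miR-27 guides. The limma p-values were adjusted over 122 differences, and unadjusted they were 0.639 and 0.223.

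The hairpin probe sets gave a second readout of the same loci. The 6 hairpins have 12 probe sets, of which 8 were above the background limit on all 12 arrays and 3 on none (both of mir-24-2 and the second of mir-27b). By limma 0 of 72 comparisons passed at an adjusted p under 0.05 and 2 at an unadjusted p under 0.05. For change over time 0 of 12 passed and 1 did so unadjusted, and over all 690 hairpin probe sets 0.145% were called. The differences ran from -0.32 to 0.35. The largest belonged to the first probe set of hairpin mir-23a, which read 6.20, 6.69 and 6.56 before treatment and 6.83, 6.84 and 6.83 at 5 h. These did not overlap, with a 95% interval from 0.11 to 0.59, but the difference was not called (limma adjusted p = 0.473). The second probe set of this hairpin read 7.60, 7.78 and 7.48 before treatment and 7.63, 7.73 and 7.90 at 5 h. These overlapped, with a difference of 0.13 (limma adjusted p = 0.801). The first probe set of hairpin mir-27a read 5.28, 4.81 and 4.84 before treatment and 4.90, 4.79 and 4.96 at 5 h, where miR-27a* was up by 0.91. That of hairpin mir-27b read 4.88, 4.59 and 4.69 before treatment and 4.79, 4.63 and 4.84 after 2 h.

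In each step between neighbouring treated times the called members moved the same way. From 2 h to 5 h 6 of 8 were higher and 0 lower, all but miR-24 and miR-27b*, against 10.7% of all tested probe sets called in either direction. From 5 h to 10 h 4 were lower and 0 higher, which were both miR-27 guides and both their passengers, against 5.58%. From 2 h to 10 h 3 were higher (miR-27a by 0.24, miR-24-2* by 0.45 and miR-27a* by 0.50) and miR-27b* was lower, against 10.9%. With the arrays shifted to a common median the last comparison moved the median of all tested probe sets to 0.11, and the 5 h to 10 h count fell to 0.

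Star strands outside the clusters were called 7 times higher and 3 lower after 2 h, 5 and 5 at 5 h and 3 and 9 after 10 h, out of 118. Their median difference was 0.04, 0.02 and 0.01 at these times, and that of all 717 probe sets was 0.03, 0.03 and 0.02. Since c-Myc is known to repress the miR-23 clusters, 25 other miRNAs known as Myc-repressed were counted. Of these 1 was higher and 6 were lower after 2 h, 4 and 2 at 5 h, and 3 and 6 after 10 h, with medians of -0.04, -0.04 and -0.10. Among all 717 probe sets 7.39% were higher and 5.86% lower after 2 h. These shares were 4.32% and 4.04% at 5 h, and 5.58% and 7.11% after 10 h. Of the 25, 23 were above the background limit on all 12 arrays, against 342 of all 717. A part of Myc in these counts was not tested.

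**Figure D4:**
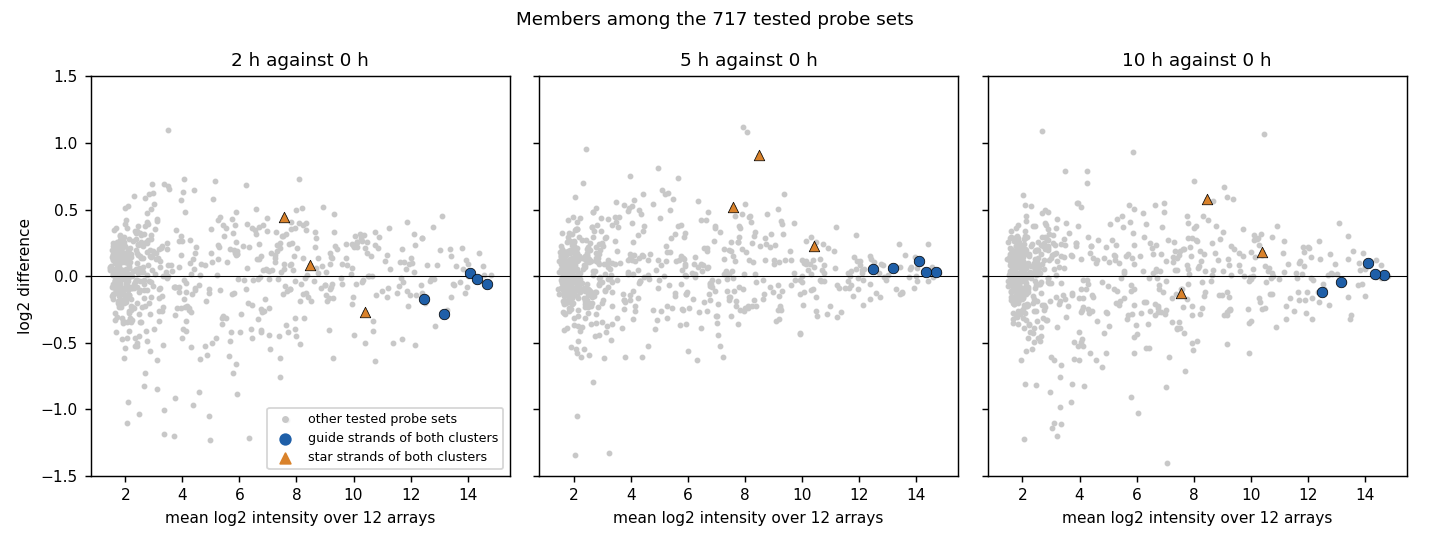
Log2 difference from 0 h against mean log2 intensity over 12 arrays for the 717 tested probe sets, with guide strands as blue circles and star strands as orange triangles; the axis ends at 1.5, beyond which lie 4 probe sets after 2 h, 3 at 5 h and 5 after 10 h. The guides lie at the bright end near 0, and miR-27a* stands at 0.91 at 5 h.

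The probe sets most like each member were sought by Pearson's r over the 12 arrays among 334 others above the limit on all arrays, as a description in which time points and arrays are shared. MiR-27a was most like miR-18a (r = 0.97), miR-30a and miR-143 (both 0.93). MiR-27a* was most like miR-195 (0.95), miR-497 (0.92) and miR-2132 (0.90), and miR-195 was also the first for miR-23b (0.92). MiR-27b* was most like miR-29b* (0.88), then miR-1931 (0.78) and miR-125a-3p (0.71). MiR-24-2* was most like miR-298 (0.91), miR-195 and miR-2132 (both 0.89). MiR-23a followed miR-18a (0.90), miR-298 (0.89) and miR-1187 (0.86), and miR-23b after miR-195 followed miR-455 and let-7e (both 0.91). MiR-27b was most like miR-152, miR-143 (both 0.82) and miR-18a (0.81), and miR-24 like miR-107 (0.81), miR-500 (0.80) and miR-185 (0.78). Among the members r was 0.93 for miR-23a with miR-24-2*, 0.83 for the miR-27 guides, and 0.25 for their passengers. For guide and passenger of 1 hairpin it was 0.57 in mir-27a and 0.25 in mir-27b.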

How the data were processed

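Total RNA of NIH3T3 cells was labelled and hybridised to Affymetrix GeneChip miRNA arrays, 12 in all. The authors deposited log2 intensities made by RMA, and the methods name analysis of variance and t-tests for them. The sources used here name neither the array version nor the build of its annotation. Another table deposited by the authors repeats these values (largest difference 0) beside their means, p-values, ratios and fold changes, which were not used. Arrays were grouped by the times in the labels. The 717 mature mouse probe sets entered a fit by limma 3.58.1 (R 4.3.3) (time as a factor with 4 levels, variance trend, two-sided moderated tests) and p-values were adjusted by Benjamini-Hochberg over all of them at a threshold of 0.05. Within-array differences (119 arm pairs and 3 paralog pairs) and the 690 hairpin probe sets had fits of their own. The scripts were tested on simulated data. The background limit of an array is its most frequent value plus 3 times the spread below it. RMA takes arrays to a common distribution, so differences are relative to the bulk of the probe sets, and the number of arrays limits the precision. All 8 members, the other strands of the clusters, the hairpins and the 3 probe sets most like each member are named. The members and lists were chosen with earlier results of these data known. The alternatives were other scalings, filters on dim probe sets, variance models, array weights, the methods' t-test, a replicate block and leaving out arrays.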

Additional observations from a re-analysis of the deposited data

Results flagged for a closer look

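For 7 of the 8 members limma called at least 1 difference between the treated time points (adjusted over all 717 probe sets). The only such call of miR-23b ended under 17 of 24 alternatives, and the only one of miR-23a under 6 of 24. Calls of other members also ended under some alternatives. From 2 h to 5 h the difference was 0.10 for miR-23a (adjusted p = 0.009), 0.092 for miR-23b (0.0475), 0.35 for miR-27a (8.66e-07), 0.22 for miR-27b (5.47e-04), 0.49 for miR-24-2* (3.18e-05) and 0.83 for miR-27a* (3.98e-06). From 2 h to 10 h it was 0.24 for miR-27a (2.67e-05), 0.45 for miR-24-2* (6.66e-05), 0.50 for miR-27a* (6.36e-04) and -0.57 for miR-27b* (0.0052). From 5 h to 10 h it was -0.11 for miR-27a (0.0334), -0.17 for miR-27b (0.0092), -0.33 for miR-27a* (0.0265) and -0.64 for miR-27b* (0.00546). Only groups of 4 or more samples can be searched for a single sample far from the others, and these have 3.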

How the results depend on the processing

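The calls against 0 h rested on small spreads. Main counts were 4 members at 2 h, 4 at 5 h, 3 at 10 h, 6 from 2 h to 5 h, 4 from 5 h to 10 h, 4 from 2 h to 10 h, and 7 for any change over time. With arrays shifted to one median they were 1, 1, 1, 3, 0, 3 for those comparisons and 4 for any change. Without a variance trend they were 1 at 2 h, 1 at 5 h, 1 at 10 h, 1 from 5 h to 10 h and 4 for any change. The methods' t-test, after Benjamini-Hochberg, gave 1 at 2 h, 1 at 5 h, 1 at 10 h, 2 from 2 h to 5 h, 1 from 5 h to 10 h and 2 from 2 h to 10 h. Quantile normalization gave 1 at 5 h and 0 from 5 h to 10 h, and arrays of only the time points compared gave 1 at 5 h. Without both deviating arrays, an alternative chosen after seeing the data, there were 1 at 5 h, 1 at 10 h and 2 from 5 h to 10 h. Leaving out 1 array gave 3 to 5 at 2 h, 1 to 4 at 5 h, 1 to 4 at 10 h, 4 to 6 from 2 h to 5 h, 1 to 4 from 5 h to 10 h, 4 to 5 from 2 h to 10 h and 6 to 7 for any change. All 3 arm pairs were called over time under every alternative run on pairs, among which the methods' t-test was not. Paralog pairs were 1 by limma, adjusted over 122 differences, and 3 by exact permutation, which was run on 6 pairs only. The causes of these differences were not tested.

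Differences that changed sign were all uncalled. With arrays shifted to one median they were 0.0702 for miR-23a, 0.0802 for miR-23b, 0.0829 for miR-24 and 0.0542 for miR-24-2* from 5 h to 10 h, -0.0157 for miR-23b at 2 h and 0.0362 for miR-27a at 10 h. With quantile normalization they were -0.0149 for miR-23b at 2 h, -0.0401 for miR-24 both at 5 h and at 10 h, -0.0207 for miR-27a at 5 h, 0.0083 for miR-27b* at 10 h and 0.0894 for miR-27b* minus miR-27b at 10 h. They were 0.0149 for miR-23a minus miR-23b at 2 h and -0.0563 from 2 h to 5 h (-0.0056 with array weights), and for miR-27a minus miR-27b -0.0667 at 5 h, -0.0808 at 10 h and -0.0140 from 5 h to 10 h. Leaving out 1 array gave -0.0019 to 0.0284 for miR-24 at 10 h, -0.0443 to 0.0066 at 2 h, -0.0205 to 0.0332 for miR-27a minus miR-27b at 5 h, and -0.1131 to 0.0983 for miR-27b* minus miR-27b at 10 h. For miR-23a minus miR-23b it gave -0.0122 to 0.0173 from 2 h to 5 h, -0.0239 to 0.0053 from 5 h to 10 h and -0.0221 to 0.0026 from 2 h to 10 h.

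Same-numbered arrays did not deviate together as a rule: of 18 such pairs 4 correlated above 0.1, with r from -0.21 to 0.60, so the numbers were not taken to pair the arrays. With the replicate block the counts were 4 at 2 h, 4 at 5 h, 2 at 10 h, 5 from 2 h to 5 h, 3 from 5 h to 10 h, 4 from 2 h to 10 h and 6 for any change, and 3 arm pairs and 1 paralog pair. Guides near the top of the scale may limit what a rise could show.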
